A study of Mus musculus with 8 samples.

Results

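The proteasome subunit genes of the mouse were read from nuclei of the hippocampus and the caudate putamen of young and old animals. They were taken by gene symbol alone, as every gene named Psma to Psmg followed by a number and, in some cases, a letter. This rule found 49 of the 32285 genes in the deposited matrices. The 3 immune subunits Psmb8, Psmb9 and Psmb10 were counted apart, which left 46 genes. These were 7 alpha and 7 beta subunits of the core particle, 2 tissue-restricted subunits (Psma8 and Psmb11), 6 ATPases and 11 non-ATPase subunits of the regulatory particle, 3 chaperones of its base, 5 activator genes, 1 inhibitor and 4 chaperones of core assembly.

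Nuclei came from C57BL/6JN mice of 3 or 21 months, and the labels name no transgene or treatment. The 4 groups were hippocampus at 3 months, hippocampus at 21 months, caudate putamen at 3 months and caudate putamen at 21 months, with 2 libraries in each. Each library held nuclei of 1 male and 1 female of the same age mixed in equal numbers, from punches of the left hemisphere, sorted on a DNA stain and run on droplet single-nucleus RNA sequencing. The sexes were therefore not separable by label, and whether the hippocampal and striatal libraries came from the same animals is not stated. The p-values for age and region measure the spread between libraries only. Those between classes measure the spread of class sums within libraries, with library as a block, and classes of a library are not independent samples of animals. The study compared the ages within each region and the regions with each other.

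The proteasome is the large protease that degrades proteins tagged with ubiquitin. Its barrel-shaped core particle is built of alpha rings, which gate the entry, and beta rings, in which Psmb5, Psmb6 and Psmb7 carry the catalytic sites. A regulatory particle of ATPases (Psmc genes) and non-ATPase subunits (Psmd genes) recognises, unfolds and feeds in the substrate, and other activators (Psme genes) open the gate without ATP. Interferon induces Psmb8, Psmb9 and Psmb10, which replace the catalytic subunits in the immunoproteasome, and the activator genes Psme1 and Psme2, whose products serve the production of peptides for MHC class I.

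Promoter sequences from RefSeq on GRCm38.p6 are shown for 3 subunits. That of Psmb6 is the whole window of 250 bases before the start, that of Psmb5 is 223 bases ending 27 before the start, and that of Psmb8 is an excerpt of 29 bases ending 78 before the start. Starts are those of RefSeq. For Psmb5 and Psmb8 they lie inside the GENCODE gene ranges given further on, and so does the whole excerpt of Psmb8. Psmb5 and Psmb6 are catalytic subunits, and their windows hold the letters TGACNNNGC of the antioxidant response element. The windows of Psmc6, Psmd9 and Psmd12 hold them as well. Psmb5 and Psmb6 were lower in neuronal than in glial nuclei below, and Psmd9 was higher. A link between such letters and the levels was not tested. Psmb8 is the immune counterpart of Psmb5, and its window holds TTCNNNGAA, the letters of the gamma-activated site of interferon signalling. Capitals mark these letters.
Psmb5, chr14:54618023-54618245, minus strand: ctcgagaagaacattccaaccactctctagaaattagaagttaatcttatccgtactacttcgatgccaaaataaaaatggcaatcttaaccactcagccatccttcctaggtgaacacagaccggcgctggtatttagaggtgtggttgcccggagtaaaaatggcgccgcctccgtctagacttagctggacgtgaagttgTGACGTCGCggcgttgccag
Psmb6, chr11:70525107-70525356, plus strand: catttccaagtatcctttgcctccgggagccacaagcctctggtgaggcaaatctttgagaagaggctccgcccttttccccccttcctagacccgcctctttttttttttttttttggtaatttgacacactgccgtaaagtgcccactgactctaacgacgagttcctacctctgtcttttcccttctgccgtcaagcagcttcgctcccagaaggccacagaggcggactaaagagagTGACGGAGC
Psmb8, chr17:34198088-34198116, plus strand: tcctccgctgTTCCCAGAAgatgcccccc

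The antioxidant response letters, searched on both strands of the 250 bases before each start, were present for 5 of the 38 non-immune members with a window (Psmb5, Psmb6, Psmc6, Psmd9 and Psmd12), for none of the 3 immune members and in 11.5% of all 27025 genes with a window. The gamma-activated site was present for Psmb8 and for Psmg1 of the 38 others, against 8.13% of all genes. The interferon-stimulated response element, searched as GAAANNGAA, was present for Psmb3, Psmd4 and Psmd9 and for none of the immune members, against 8.18%. The CCAAT box was present for 13 of the 38 and for Psmb9, against 37.5%. These are matches of letters, and no binding was measured.

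After filtering, 97834 of 109826 nuclei were retained, 6382 to 17034 in each library, with 64447207 to 186407218 unique molecular identifiers (UMIs) in the retained nuclei of a library and a median of 6685.5 to 11266 UMIs for each nucleus. Clusters were formed without the member genes and named by marker genes. Of the 97834 nuclei, 90241 were in named clusters. Named classes with at least 20 nuclei in every library of a region were used, 9 in the hippocampus and 10 in the caudate putamen, 4 of them neuronal in each region. Hippocampal mural-like nuclei, 12 to 65 in a library, were among those left out. Pairs of libraries shared 21 to 146 nucleus barcodes, at most 0.774% of the nuclei in the smaller library. The second 3-month hippocampal library stood apart: ribosomal protein genes took 0.229% of its UMIs, against 0.178% to 0.187% in the other hippocampal libraries. Its doublet cutoff was set from the expected doublet rate, since the automatic cutoff called 0.0694% of its nuclei where 16.1% were expected. Levels are CPM, the UMIs of a gene scaled to a fixed total of UMIs of its class in a library, and they are compared between classes and libraries for 1 gene at a time. A lower CPM may come from fewer nuclei of a subtype in a class or from less RNA in each nucleus, which cannot be told apart in class sums.

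All classes contained most subunits, and the same few classes had the highest levels for most of them. Endothelial-like nuclei had the highest mean CPM for 36 members in the hippocampus and for 24 in the caudate putamen, where mural-like nuclei led for 15 and microglia-like nuclei for 5. Mural-like nuclei were not among the hippocampal classes, so that the counts of both regions are not over the same classes. The share of all genes with their highest mean in each class was not computed. These counts can therefore not be read as particular to the members. Psma8, Psmb11 and Psme2b were left out of the next ratios. Across the 43 other members, the highest class exceeded the lowest by a median of 2.30 times in the hippocampus (range 1.32 to 14.5). In the caudate putamen the median was 2.37 times (1.34 to 24.6). For Psma8 the ratio was 50.7 in the hippocampus and 168 in the caudate putamen, over lowest class means of 0.259 and 0.104 CPM. Psmb11 and Psme2b had a lowest class mean of 0 CPM. The leading class was separate from the next over all libraries for 12 of 49 genes in the hippocampus and for 2 of 49 in the caudate putamen, so that in most cases the order of the top classes lay within the spread between libraries. The share of all genes so separated was not computed either. Endothelial-like nuclei were few, 38 to 201 in a hippocampal library and 43 to 113 in a striatal one, and shallow. Their sums also stood apart in make-up: ribosomal protein genes took 0.618% to 1.18% of UMIs, against at most 0.535% in microglia-like nuclei, mitochondrial genes took 0.0368% to 0.118%, and 9 mural markers were at 402 to 2499 CPM. The part of these in the endothelial-like levels was not tested.

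**Figure D1:**
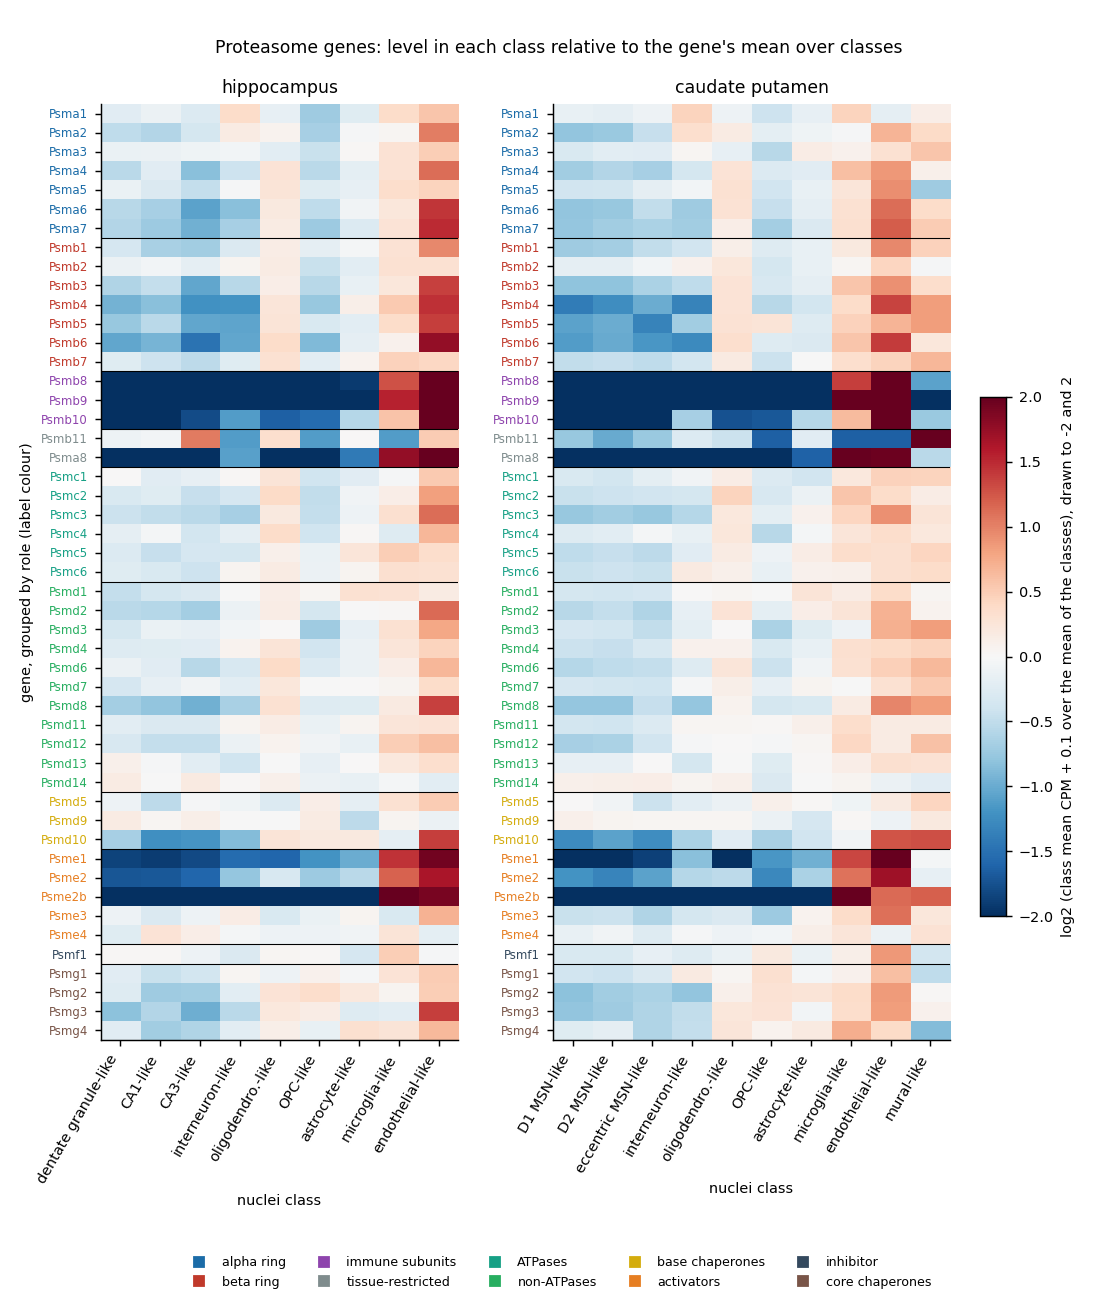
Heat map of class levels. Each cell gives log2 of a gene's mean CPM in a class (plus 0.1, over the libraries of both ages) minus the gene's mean over the classes of the region, limited to -2 and 2, with genes in rows by role and classes in columns. The immune subunits and Psme1 are high in the endothelial-like and microglia-like columns, and the core subunits are high in the endothelial-like column.

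Among the catalytic genes, Psmb5 (14:54614119-54618022, minus strand, GRCm38) was at 36.3 and 45.3 CPM in endothelial-like nuclei of the 3-month hippocampus and at 35.2 and 48.1 CPM at 21 months. In oligodendrocyte-like nuclei it was at 17.4 and 28.2 CPM at 3 months and at 11.1 and 19.5 CPM at 21 months. In dentate granule-like neurons it was at 8.48 and 11.8 CPM, and then at 8.01 and 9.06 CPM. Endothelial-like libraries were thus all above oligodendrocyte-like ones, while the oligodendrocyte-like and dentate granule-like libraries overlapped. In the caudate putamen they did not overlap: Psmb5 was at 17.8 and 18.2 CPM in oligodendrocyte-like nuclei at 3 months and at 15.8 and 16.3 at 21 months, against 6.22 to 6.92 CPM in D1 medium spiny neuron-like nuclei, the striatal output neurons with the D1 dopamine receptor.

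Between neuronal and glial classes, 5 of the 7 core beta subunits were lower in neurons in both regions, where 34.6% and 37.6% of all genes were. Of the 11 non-ATPase subunits 5 were higher relative to the median gene in each region, near the 37.7% and 38.5% of all genes. The comparison set the mean of the 4 neuronal classes against the mean of oligodendrocyte-like, oligodendrocyte precursor (OPC)-like, astrocyte-like and microglia-like nuclei, with each library as a block (edgeR quasi-likelihood test, Benjamini-Hochberg adjustment over all genes). In the hippocampus 28 of 45 members were called at an adjusted p under 0.05, 16 higher and 12 lower in neurons, where 72.3% of all genes were called (37.7% higher and 34.6% lower). In the caudate putamen 31 of 45 were called, 14 higher and 17 lower, where 76.1% of all genes were called (38.5% higher and 37.6% lower). The share of members called was thus no larger than that of all genes. Without the second 3-month library 22 of the 28 hippocampal calls remained. The member median of the log2 difference was -0.02 in the hippocampus and -0.07 in the caudate putamen, beside all-gene medians of -0.0017 and -0.026.

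The split into higher and lower depended on the scaling. The main fit used trimmed-mean (TMM) factors, which place the median gene near 0. When counts were divided by library totals alone, the all-gene median moved to -0.41 in the hippocampus and to -0.42 in the caudate putamen, and the members split into 2 higher and 32 lower in the hippocampus (77.0% of all genes called, 24.3% higher and 52.7% lower) and into 2 higher and 36 lower in the caudate putamen (80.0%, 24.5% higher and 55.5% lower). All 12 lower calls of the hippocampus and all 17 of the caudate putamen were lower on both scales. Of the higher calls, those of Psmd14 and Psmd9 held on both. The other higher calls were not called higher on library totals. Some of their values stayed above 0 there, as for Psma1, and others were below 0, as for Psmd4.

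The beta subunits gave 5 lower calls of 7 in each region. Psmb6, a catalytic subunit, was lower in neurons by log2 -0.62 (SE 0.13, adjusted p = 8e-05) in the hippocampus and by -0.82 (SE 0.08, adjusted p = 6.06e-13) in the caudate putamen. Its CPM in D1-like nuclei was 6.79 and 6.81 at 3 months and 6.42 and 6.81 at 21 months, against 17.9 to 19.8 in oligodendrocyte-like nuclei of the same region, with no overlap. Psmb4, a non-catalytic beta subunit (3:94884093-94886961), was lower by log2 -0.69 (SE 0.13, adjusted p = 2.23e-05) and -0.78 (SE 0.10, adjusted p = 1.51e-09). Psmb5 was lower by log2 -0.54 (SE 0.12, adjusted p = 0.000151) and -0.80 (SE 0.09, adjusted p = 9.23e-11). The hippocampal value of Psmb5 was -0.19 with an adjusted p of 0.200 without the second 3-month library, in which Psmb5 was at 28.2 CPM in oligodendrocyte-like nuclei.

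The third catalytic gene, Psmb7, did not pass the test, at log2 -0.13 (95% interval -0.27 to -0.0023, adjusted p = 0.0726) in the hippocampus and -0.07 (-0.20 to 0.06, adjusted p = 0.346) in the caudate putamen. The intervals are approximate, and the hippocampal one leaves out 0 although the unadjusted p of edgeR was not under 0.05. Psmb7 was called under other settings: DESeq2 gave -0.20 (adjusted p = 0.00506) and -0.13 (adjusted p = 0.0470), and in the hippocampus it was also called with DESeq2 size factors (-0.21, adjusted p = 0.00765), with the length trend removed (-0.23, adjusted p = 0.00409), with coarser clusters (-0.15, adjusted p = 0.0445) and without the first 21-month library (-0.22, adjusted p = 0.0122). On library totals it was lower in both regions, by -0.55 and -0.47. Psmb2 was the beta subunit with a higher call, at log2 0.39 (adjusted p = 1.05e-09) and 0.36 (adjusted p = 8.11e-11), relative to the median gene.

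The alpha subunits went in both directions, with 3 higher and 2 lower calls of 7 in the hippocampus and 3 higher and 3 lower in the caudate putamen. Psma1 was higher by log2 0.51 (SE 0.06) and 0.48 (SE 0.06) relative to the median gene. On library totals its differences were 0.10 (adjusted p = 0.204) and 0.09 (adjusted p = 0.178). Psma7, the representative alpha subunit here, was lower by log2 -0.24 (adjusted p = 0.0201) and -0.18 (adjusted p = 0.00546). Its hippocampal value was -0.06 (adjusted p = 0.638) without the second 3-month library, which had 45.3 CPM in oligodendrocyte-like nuclei where the other 3 had 30.9 to 37.4 CPM. The hippocampal call was also lost with the length trend removed (-0.13, adjusted p = 0.227) and without the library block (-0.23, adjusted p = 0.0574). With the length trend removed, the striatal call was lost as well and its edgeR value changed sign (0.0037, adjusted p = 0.981).

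In the regulatory particle, the ATPases gave 2 higher and 0 lower calls of 6 in the hippocampus and 2 higher and 2 lower in the caudate putamen, and the non-ATPases gave 5 higher and 1 lower of 11 and 5 higher and 2 lower. Psmd14 (2:61711694-61800376), the deubiquitinase that removes the ubiquitin chain before degradation, was higher in neurons by log2 0.56 (SE 0.04, adjusted p = 3.66e-14) in the hippocampus and 0.54 (SE 0.04, adjusted p = 3.51e-18) in the caudate putamen. On library totals its difference was 0.15 in the hippocampus (adjusted p = 0.00205) and 0.14 in the caudate putamen (adjusted p = 0.00038). Its CPM in striatal oligodendrocyte-like nuclei, 105 to 118, overlapped that in D1-like nuclei, 102 to 112, so the difference arose over the class means and not from every pair of classes. The ubiquitin receptor Psmd4 was higher by log2 0.23 (adjusted p = 0.000578) and 0.12 (adjusted p = 0.0239) relative to the median gene, and lower by -0.18 and -0.28 on library totals. The striatal value was 0.06 (adjusted p = 0.277) with DESeq2, 0.06 (0.274) with DESeq2 size factors, 0.08 (0.214) without the filter, 0.10 (0.0581) with coarser clusters and 0.07 (0.175) with doublets retained. Its call was lost without the first 21-month hippocampal library (adjusted p = 0.0528) and, in the caudate putamen, without the first 3-month (0.102), the second 3-month (0.0727) or the second 21-month library (0.278). The ATPase Psmc5 was at -0.14 (adjusted p = 0.144) in the hippocampus and lower by -0.18 (adjusted p = 0.00925) in the caudate putamen. The hippocampal value was called without the first 21-month library, at -0.27 (adjusted p = 0.0043), by DESeq2 (-0.20, adjusted p = 0.0376), with DESeq2 size factors (-0.22, adjusted p = 0.0250) and with doublets retained (-0.17, adjusted p = 0.0480). With the length trend removed, the striatal value was -0.01 (adjusted p = 0.883).

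Among the assembly chaperones, Psmd9 was higher in neurons by log2 0.55 (SE 0.06) in both regions, with adjusted p = 9.21e-10 in the hippocampus and 4.01e-11 in the caudate putamen. On library totals it was higher by 0.13 (adjusted p = 0.0467) and 0.15 (adjusted p = 0.0267). Psmd10, a chaperone of the ATPase ring, was lower by -0.94 in the hippocampus (SE 0.27, adjusted p = 0.00219), a value of -0.28 with an adjusted p of 0.682 without the second 3-month library. The core chaperone Psmg4 was at -0.22 (adjusted p = 0.18) in the hippocampus and lower by -0.28 (adjusted p = 0.0261) in the caudate putamen, a call that was lost without the second 21-month library (adjusted p = 0.292) and with the length trend removed (-0.18, adjusted p = 0.155).

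The activators split. Psme1 (14:55578123-55581529) was lower in neurons by log2 -0.76 (SE 0.10, adjusted p = 8.47e-09) and -0.74 (SE 0.14, adjusted p = 1.14e-05), and Psme2 by -0.92 (SE 0.15, adjusted p = 9.15e-07) and -0.33 (SE 0.15, adjusted p = 0.0418). The Psme1 difference did not arise from every pair of classes. Microglia-like means were 47.2 and 37.0 CPM, while hippocampal oligodendrocyte-like and dentate granule-like libraries overlapped. In the caudate putamen the D2-like mean of 2.47 CPM lay within the range of the oligodendrocyte-like libraries. Neither Psme1 nor Psme2 passed the filter on low counts in the OPC-like age fit. Psme4, an activator that works without ubiquitin, was higher by 0.45 (SE 0.04, adjusted p = 1.3e-11) and 0.22 (SE 0.04, adjusted p = 5.35e-07) relative to the median gene, and was at -0.18 on library totals in the caudate putamen and at 0.06 (adjusted p = 0.156) there with the length trend removed. Psme3, the nuclear activator, was higher by 0.58 (adjusted p = 0.000462) in the hippocampus and was at 0.06 (adjusted p = 0.669) in the caudate putamen. The inhibitor Psmf1 was higher by 0.28 (adjusted p = 0.00072) in the hippocampus and at 0.14 (adjusted p = 0.0701) in the caudate putamen, and was at -0.14 and -0.26 on library totals. Without the first 21-month striatal library, the value of Psmf1 passed the test in the caudate putamen (adjusted p = 0.0185), as it did with the length trend removed (0.21, adjusted p = 0.00912), with coarser (0.21, adjusted p = 0.00461) and finer clusters (0.16, adjusted p = 0.0422) and with doublets retained (0.22, adjusted p = 0.00391).

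**Figure D2:**
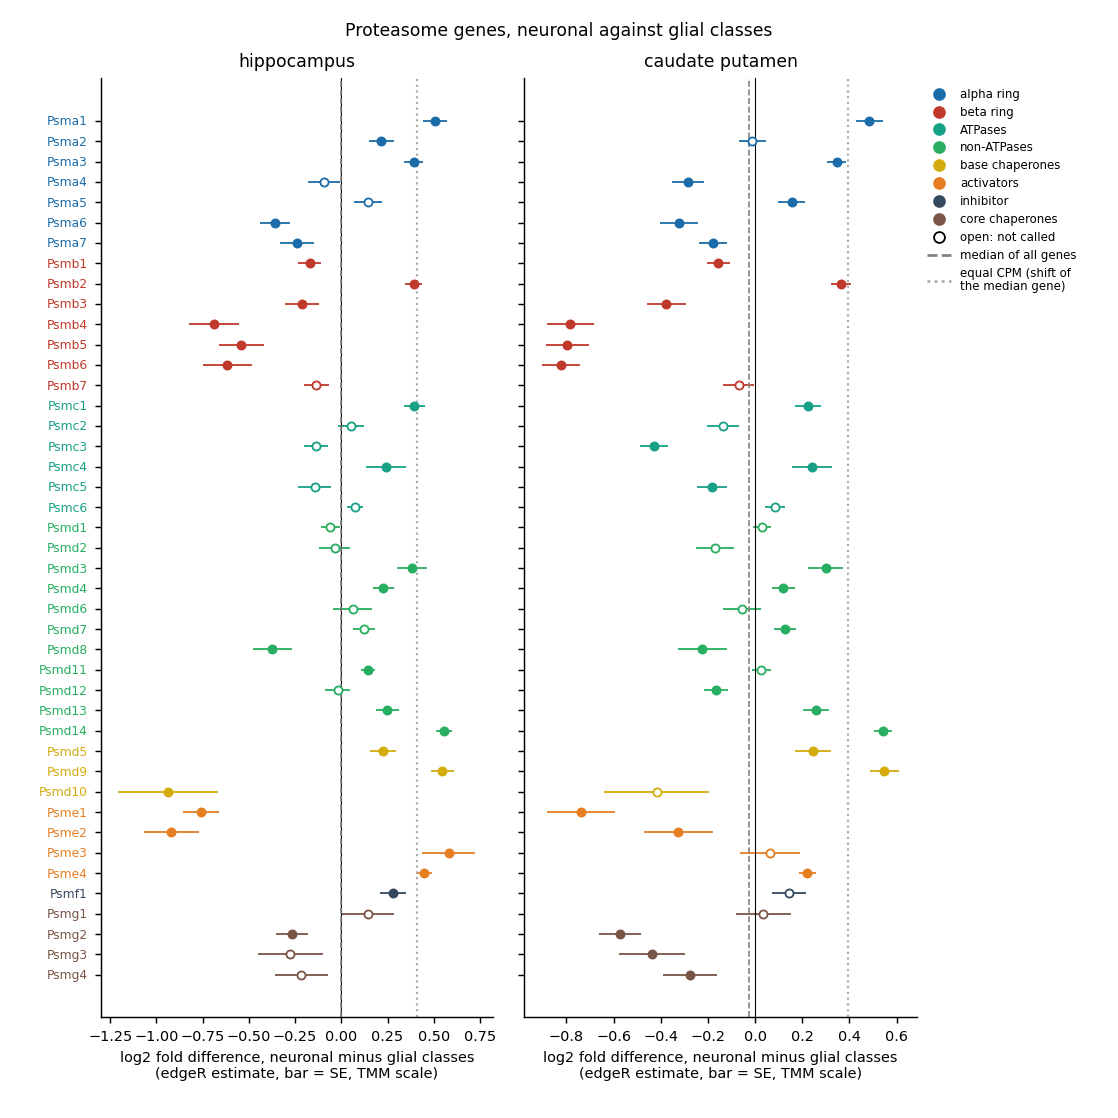
Neuronal minus glial log2 difference of 43 members in the hippocampus and the caudate putamen, with bars for the SE. Open points were not called, the dashed line is the median of all genes and the dotted line is equal CPM, so that points between the lines were above the median gene but not above in CPM. Psmb4, Psmb5, Psmb6, Psme1 and Psme2 lie to the low side and Psmd14 and Psmd9 lie past the dotted line in both regions, as do Psma1 in both and Psme3 and Psme4 in the hippocampus, which were not called on library totals.

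The regions shared calls of members about as often as those of all genes. Of the calls, 23 were made in both regions in the same direction, 12 higher and 11 lower, and 0 in opposite directions. They made up 82.1% of the hippocampal calls and 74.2% of the striatal ones, beside 81.7% and 77.7% for all genes. Gene length moved with these differences: across the 45 members Spearman's rho between the difference and the log gene length was 0.52 in the hippocampus and 0.54 in the caudate putamen, against 0.17 and 0.18 across all genes (correlations across genes in the same libraries, which are not independent replicates). Of the 16 members longer than 20 kb, 9 were called higher and 2 lower in the hippocampus and 7 higher and 3 lower in the caudate putamen. Of all 9440 and 9349 such genes, 4257 were higher and 3075 lower, and 4332 higher and 3245 lower. Of the 29 shorter members, 7 were higher and 10 lower, and 7 higher and 14 lower. Of all 7382 and 7282 shorter genes, 2083 were higher and 2740 lower, and 2062 higher and 3016 lower. The part of length in the result was tested only by removing the trend over all genes, after which rho was 0.36 and 0.38.

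Microglia-like nuclei were set against the mean of the other classes of their region. All 3 immune subunits were higher in them in both regions, and so were Psme1, Psme2 and, with limits given below, Psma8 and Psme2b. This was not particular to microglia-like nuclei: endothelial-like nuclei had higher class means of Psmb8, Psmb9, Psmb10, Psme1 and Psme2 in both regions, for example 24.1 against 9.96 CPM of Psmb8 and 66.2 against 47.2 CPM of Psme1 in the hippocampus. Over the libraries the classes were separate for Psmb8, Psmb9 and Psmb10 in the hippocampus and for Psmb10 in the caudate putamen. Over the 45 other members, 16 were called in the hippocampus, 4 higher and 12 lower, where 51.6% of all genes were called (22.9% higher, 28.8% lower), and 17 in the caudate putamen, 6 higher and 11 lower, where 56.5% were called (27.9% higher, 28.6% lower). Without the second 3-month library 9 of the 16 hippocampal calls remained, and Psme4, lower by -0.27 (adjusted p = 0.00222), was among those lost (-0.17, adjusted p = 0.101). The Psme4 call was also lost with DESeq2 size factors (-0.13, adjusted p = 0.138) and with DESeq2 (-0.15, adjusted p = 0.0509), and its direction turned with the length trend removed (0.21, adjusted p = 0.0271) and on library totals (0.29, adjusted p = 0.0005), where it was called higher. The all-gene median was -0.20 in the hippocampus and -0.078 in the caudate putamen under TMM, and 0.36 and 0.37 on library totals. On library totals the members split into 24 higher and 0 lower (54.7% of all genes called, 40.2% higher and 14.5% lower) and 27 higher and 0 lower (62.2%, 45.1% higher and 17.2% lower), and none of the lower calls held.

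Psme1 was higher in microglia-like nuclei by log2 1.98 (SE 0.14, adjusted p = 7.93e-15) in the hippocampus and 2.08 (SE 0.19, adjusted p = 2.31e-13) in the caudate putamen. It was at 48.9 and 36.5 CPM at 3 months and at 58.5 and 44.8 CPM at 21 months in hippocampal microglia-like nuclei. In dentate granule-like neurons it was at 4.14 and 4.79, and then at 5.02 and 4.83 CPM. Every microglia-like library was above every dentate granule-like one. Psme2 was higher by 1.35 (SE 0.25, adjusted p = 1.79e-05) and 1.37 (SE 0.21, adjusted p = 1.49e-07).

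Psma8, the alpha subunit known from the testis, was higher in microglia-like nuclei by log2 3.19 (SE 0.48, adjusted p = 5.44e-07) and 4.51 (SE 0.35, adjusted p = 4.77e-16). It was at 18.6 and 4.81 CPM at 3 months and 8.07 and 12.05 CPM at 21 months in the hippocampus. In the caudate putamen it was at 21.8 and 18.0 CPM, and then at 19.1 and 10.9 CPM, while neuronal classes stayed at or below 2.58 CPM. Endothelial-like nuclei had similar Psma8 means, 13.2 CPM against 10.9 in microglia-like nuclei of the hippocampus and 15.1 against 17.5 CPM in those of the caudate putamen, and the libraries of both classes overlapped. Psma8 failed the filter on low counts in the age fits of astrocyte-like, oligodendrocyte-like, OPC-like, endothelial-like and most neuronal classes. Its lowest class means were 0.259 and 0.104 CPM, so that it entered these tests through classes where it was high. The fold differences of Psma8 are therefore not independent of the filter. Psme2b, a copy of Psme2, is counted among the higher calls of both regions, on 15 UMIs in hippocampal and 24 in striatal microglia-like nuclei. It failed the filter on low counts in each class fitted alone. Its class means ran from 0 CPM to 5.71 and 5.46 CPM in microglia-like nuclei, so that it entered the test through classes where it was high. No fold difference of Psme2b is given for that reason. Its gene overlaps Gm12185 and 9930111J21Rik1 and resembles Psme2, so that its reads are uncertain.

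Of the constitutive catalytic genes, Psmb6 was higher in microglia-like nuclei in the caudate putamen (log2 0.42, SE 0.15, adjusted p = 0.0194), a call that was lost without the first 3-month library (adjusted p = 0.0669) and with the length trend removed (0.17, adjusted p = 0.435). Psmb5 was at 0.21 and 0.33 (adjusted p = 0.499 and 0.114) and Psmb7 at 0.03 and 0.00, none of which passed relative to the median gene. The striatal value of Psmb5 passed with doublets retained (0.45, adjusted p = 0.0203). On library totals both genes passed in both regions, Psmb5 at 0.76 (adjusted p = 0.0101) and 0.77 (adjusted p = 0.000262) and Psmb7 at 0.59 (adjusted p = 0.00116) and 0.44 (adjusted p = 0.0033). The lower calls, relative to the median gene, included Psmd14 (-0.59 and -0.39), Psmd9 (-0.48 and -0.41) and, in the hippocampus, Psme3 (-1.10, SE 0.37, adjusted p = 0.0123). The Psme3 value was -0.37 (adjusted p = 0.512) without the second 3-month library, and it was not called by DESeq2 (-0.97, adjusted p = 0.0533). The Psmd9 call was lost without either 21-month library in the hippocampus (0.0960 without the first, 0.0512 without the second) and, in the caudate putamen, without the second 3-month (0.102) or the second 21-month library (0.0635), and it was not called in the hippocampus by DESeq2 (0.0873) or with DESeq2 size factors (0.0573). With the length trend removed, Psmd9 passed in neither region (0.462 and 0.0731), nor did Psmd14 in the hippocampus (-0.22, adjusted p = 0.0556). Of the microglia calls, 10 were shared by the regions in the same direction, 62.5% of the hippocampal and 58.8% of the striatal ones, beside 83.3% and 76.8% for all genes.

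Psmb8 and Psmb9 were nearly absent from neurons, and Psmb10 was low there. Its lowest class means were 0.330 CPM in eccentric medium spiny neuron-like nuclei and 0.983 CPM in dentate granule-like nuclei. Psmb8 (17:34197721-34201454), with its antisense partner Gm20496, was at 16.8 and 17.7 CPM in endothelial-like nuclei of the 3-month hippocampus and at 35.2 and 26.7 at 21 months. In those of the caudate putamen it was at 29.2 and 19.7 CPM, and then at 39.4 and 4.96. In hippocampal microglia-like nuclei it was at 3.38 and 10.6, and then at 12.1 and 13.8 CPM. The 2 older hippocampal libraries were above the 2 younger ones in both of these classes, as for 16.7% of all genes in endothelial-like and 18.1% in microglia-like nuclei. In microglia-like nuclei Psmb8 failed the filter on low counts, while both shares are over the genes that passed it. The striatal endothelial-like libraries of the ages overlapped. The first 21-month hippocampal library, with the highest Psmb8 of the 4, also held 37.7 CPM of 7 T cell markers in its endothelial-like nuclei, against 0 to 1.30 CPM in the others, and the part of these in its Psmb8 level was not tested. Neuronal classes held at most 0.488 CPM, on 25 UMIs in all dentate granule-like nuclei and 14 in all D1-like nuclei.

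Psmb9 (17:34181987-34187764, next to Tap1 on the opposite strand) was at 13.5 and 6.73 CPM in hippocampal microglia-like nuclei at 3 months and at 18.2 and 15.5 at 21 months. In striatal microglia-like nuclei it was at 11.6 and 21.6, and then at 26.0 and 28.4 CPM. In both regions the older libraries were above the younger, as for 18.1% of all genes in these hippocampal and 18.7% in these striatal nuclei. The 7 T cell markers, which come from a cell type that carries these genes, moved with the striatal values, from 26.2 and 23.1 CPM at 3 months to 77.2 and 77.6 CPM at 21 months in the same nuclei, and in the hippocampus were at 54.0 and 35.6, and then at 18.2 and 18.9 CPM. The 6 macrophage markers were at 233 and 144, and then at 230 and 77.6 CPM, in striatal microglia-like nuclei. In hippocampal ones they were at 2.02 to 10.3 CPM, and macrophage-like nuclei formed a class of their own there. The part of both marker sets in the Psmb9 levels was not tested. Its level in neurons was again at most 0.488 CPM. Psmb10 (8:105935735-105938444) was less restricted: it was at 29.8 and 39.3, and then 31.8 and 21.4 CPM, in hippocampal endothelial-like nuclei, at 3.33 to 4.83 CPM in hippocampal astrocyte-like nuclei, and at 0 to 4.29 CPM in the neuronal classes.

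The 3 immune genes were lower in neurons than in glia in both regions. Psmb8 and Psmb9 failed the filter on low counts in the age fit of every neuronal class. They entered the comparisons between classes through the classes where they were high, so that their values here and for microglia are not independent of the filter. Psmb8 differed by log2 -2.62 (SE 0.55, adjusted p = 6.52e-05) and -3.01 (SE 0.51, adjusted p = 7.25e-07), Psmb9 by -2.29 (SE 0.86, adjusted p = 0.0167) and -3.31 (SE 0.97, adjusted p = 0.00217), and Psmb10 by -0.81 (SE 0.22, adjusted p = 0.00121) and -1.61 (SE 0.29, adjusted p = 3e-06). Psmb9 was not called without the first 21-month hippocampal library or without the second 3-month striatal one (adjusted p = 1 in each case), and Psmb10 was not called without the second 3-month hippocampal one (-0.57, adjusted p = 0.0896).

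In microglia-like nuclei against the other classes, Psmb8 was higher by log2 3.88 (SE 0.42, adjusted p = 4.6e-10) and 4.17 (SE 0.40, adjusted p = 4.57e-13), and Psmb9 by 4.67 (SE 0.48, adjusted p = 1.23e-10) and 6.03 (SE 0.34, adjusted p = 4.86e-21). Psmb10 was higher by 1.12 (SE 0.37, adjusted p = 0.0109) and 1.80 (SE 0.36, adjusted p = 3.16e-05). Its hippocampal call was lost without the first 3-month (0.0805) or the second 21-month library (0.0577) and with doublets retained (0.82, adjusted p = 0.0638). Endothelial-like nuclei held 96.1 to 144 CPM of 13 microglia markers, where microglia-like nuclei held 8302 to 11014, and the part of such nuclei in the endothelial-like levels was not tested.

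**Figure D3:**
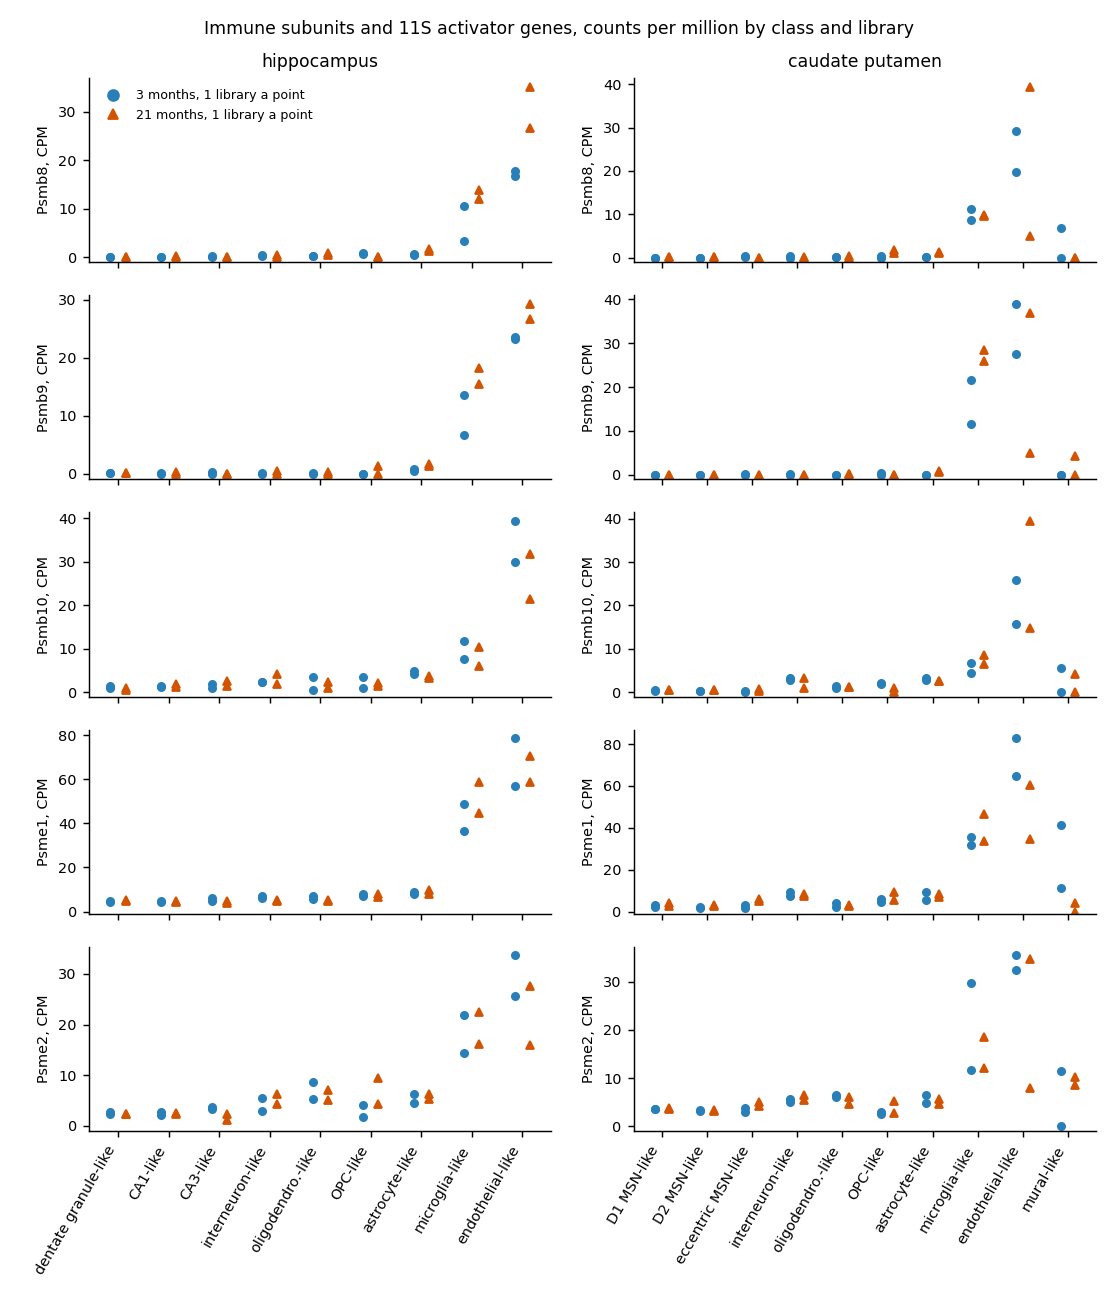
CPM of Psmb8, Psmb9, Psmb10, Psme1 and Psme2 in each class, with 1 point for each library (circles 3 months, triangles 21 months). The class means of endothelial-like and microglia-like nuclei are the highest of the classes drawn for all 5 genes in both regions, and the neuronal classes are at or near 0 for Psmb8 and Psmb9.

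Between young and old animals, few single proteasome genes were called. In the hippocampus 0 of 371 pairs of a member and a class were called by edgeR, where 1.09% of all gene and class pairs were, and DESeq2 called 0, where it called 1.11% of all pairs. At an unadjusted p under 0.05 there were 31 pairs, 5 higher and 26 lower at 21 months, which is 8.36% against 12.01% of all pairs. In the caudate putamen 1 of 372 pairs was called, where 1.25% of all pairs were, and DESeq2 called 1 (1.41% of all pairs). At an unadjusted p under 0.05 there were 17 pairs, 3 higher and 14 lower, or 4.57% against 13.8%. For the 5 glial and endothelial classes present in both regions, the mean age difference gave 0 calls of 200 (2.89% of all pairs, 21 at an unadjusted p under 0.05, 3 higher and 18 lower, DESeq2 0, with 1.93% of all pairs). The difference of the age effects between the regions also gave 0 of 200 (0.00690% of all pairs, 6 at an unadjusted p under 0.05, DESeq2 0, with 0.00814% of all pairs).

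The called gene was Psmd2 (16:20651652-20663414), the scaffold of the base of the regulatory particle, in the D2 medium spiny neuron-like class of the caudate putamen. It was at 16.2 and 13.6 CPM at 3 months and at 10.7 and 10.4 CPM at 21 months, with no overlap of the ages. The log2 difference was -0.51 (SE 0.10, adjusted p = 0.0356), where 4.90% of all genes of that class were called, 2.80% lower. DESeq2 gave -0.52 (adjusted p = 0.0269). The call was lost without any 1 of the 4 striatal libraries: the adjusted p was 0.123 without the first and 0.0507 without the second 3-month library, and 0.129 without the first and 0.184 without the second 21-month library, with log2 differences of -0.41, -0.62, -0.54 and -0.49. On library totals alone the value was -0.49 with an adjusted p of 0.0525. The D2-like nuclei of the second 21-month library were the shallowest, with a median of 8978 UMIs against 11979 to 14301, and the value without that library is the last of those above.

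The other striatal neurons had Psmd2 values on the same side that did not pass the test. In D1-like nuclei Psmd2 was at 13.8 and 12.8 CPM at 3 months and at 10.5 and 11.4 CPM at 21 months (log2 -0.31, SE 0.09, adjusted p = 0.134). In striatal interneuron-like nuclei it was at 20.8 and 22.9, and then at 9.93 and 9.90 CPM (-1.13, SE 0.21, adjusted p = 0.0718). With a replicate block, under which 5.31% of all striatal pairs were called, the D1-like value passed (adjusted p = 0.0424), as did the interneuron-like one (0.0215). The latter also passed without the filter on low counts (0.000315), where 2.34% of all pairs did. In eccentric spiny neuron-like nuclei it was at 12.5 and 15.2, and then at 10.8 and 8.52 CPM (-0.53, adjusted p = 0.460). The ages did not overlap in any of the 4 striatal neuronal classes, which share their libraries and are not independent. In these classes 21.3% to 25% of all genes had both old libraries below both young ones.

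In hippocampal neurons the ages overlapped for Psmd2 in CA1-like, CA3-like and interneuron-like nuclei and did not overlap in dentate granule-like nuclei. It was at 11.8 and 12.3, and then at 11.7 and 11.9 CPM, in CA1-like nuclei (log2 0.05, 95% interval -0.27 to 0.37). In CA3-like nuclei it was at 10.2 and 12.1, and then at 11.6 and 10.5 CPM, and in interneuron-like nuclei at 17.5 and 16.1, and then at 14.2 and 17.6 CPM. In dentate granule-like nuclei it was at 12.1 and 14.4, and then at 11.04 and 11.7 CPM (-0.18, 95% interval -0.39 to 0.04), with both old libraries below both young ones and no call. There 32.9% of all genes had both old libraries below both young ones. Whether the neuronal age difference of Psmd2 differs between the regions was not tested, since the neuronal classes were fitted within each region.

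**Figure D4:**
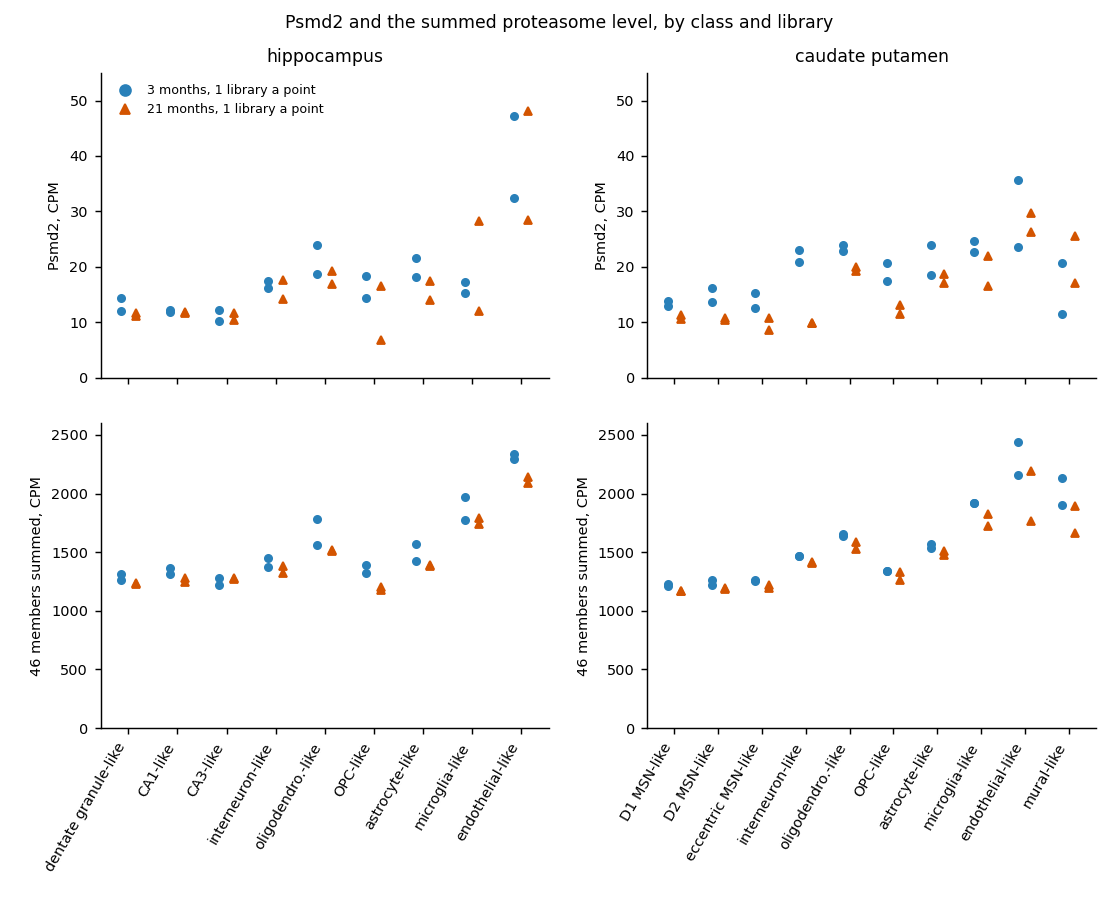
CPM of Psmd2 and summed CPM of the 46 non-immune members in each class and library (circles 3 months, triangles 21 months). In the D1-like and D2-like classes of the caudate putamen, both 21-month points lie below both 3-month points in both panels.

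With all libraries and the filter on low counts, the catalytic genes were not called with age in any class. Without that filter, Psmb5 was called lower with age in astrocyte-like nuclei, by log2 -0.74 in the hippocampus (adjusted p = 0.0255, with 2.59% of all hippocampal pairs called) and by -0.57 for the mean over regions (adjusted p = 0.0147, with 3.79% of all pairs called). The calls of Psmb5 and Psmb6 without the first 3-month hippocampal library are given further on. In dentate granule-like nuclei the log2 differences were -0.21 (SE 0.15, adjusted p = 0.493) for Psmb5, -0.32 (SE 0.18, adjusted p = 0.402) for Psmb6 and 0.13 (SE 0.08, adjusted p = 0.471) for Psmb7. In D1-like nuclei the same 3 genes were at -0.02, -0.07 and -0.07, with 95% intervals of -0.24 to 0.20, -0.27 to 0.14 and -0.21 to 0.07.

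The signs of the age differences were uneven. In the hippocampus 227 of the 371 pairs (61.2%) were negative, and in the caudate putamen 250 of 372 (67.2%), where the negative share of all genes was 48.9% to 55.1% and 47.0% to 50.3% in the classes. Without the second 3-month hippocampal library 204 of 375 hippocampal pairs (54.4%) were negative, beside 48.2% to 52.3% of all genes. The member median was below the all-gene median in 7 of 9 hippocampal and 9 of 9 striatal classes. Member medians ran from -0.184 to 0.0276 in the hippocampus and from -0.138 to -0.00429 in the caudate putamen, beside all-gene medians of -0.0393 to 0.00768 and -0.00238 to 0.0379. These are descriptions of classes that share libraries.

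Both old libraries were below both young ones for 20 of 44 members in D1-like nuclei, where 22.6% of all genes were so, and for 18 of 44 in D2-like nuclei (25.0% of all genes). In oligodendrocyte-like nuclei the count was 18 of 43 in the caudate putamen (29.7%) and 15 of 43 in the hippocampus (28.4%). In dentate granule-like nuclei it was 19 of 44 (32.9%). In microglia-like nuclei of the caudate putamen it was 7 of 39, near the 22.6% of all genes. In CA3-like nuclei 10 of 42 members had both old libraries above both young ones, where 11.6% of all genes did, and 10 had both below (23.5%). With the first 3-month hippocampal library alone as the young group, both old libraries were below it for 23 of 44 members in dentate granule-like nuclei (41.4% of all genes) and for 17 of 43 in oligodendrocyte-like nuclei (38.8%).

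The summed CPM of the 46 members was lower on average at 21 months in 8 of 9 hippocampal classes, all but CA3-like, with changes of the mean from -12.3% to 2.49% and a median of -5.81%. In the caudate putamen it was lower in 10 of 10 classes, from -13.8% to -3.19% with a median of -4.28%. Both old libraries were below both young ones in 6 of 9 and in 9 of 10 classes, the striatal exception being endothelial-like nuclei. These sums and those by role are in CPM, and sums of other gene sets were not compared. Of all single genes, 17.7% to 32.9% in the hippocampal classes had both old libraries below both young ones. For 10.8% to 20% both were above. In the striatal classes fitted for age these shares were 19% to 29.7% and 13.6% to 30.5%. The part of a general shift in CPM was not tested. In D1-like nuclei the sum was 1233 and 1209 CPM at 3 months and 1167 and 1171 CPM at 21 months. In striatal oligodendrocyte-like nuclei it was 1658 and 1635, and then 1589.5 and 1531 CPM. In hippocampal oligodendrocyte-like nuclei it was 1557 and 1786, and then 1509 and 1517 CPM, the second young library being far above the other 3. Without that library the hippocampal sum was still lower in 8 of 9 classes, with a median change of -2.83%, and both old libraries were below the remaining young one in 7 of 9.

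By role, the summed CPM of the 7 alpha subunits was lower on average at 21 months in 10 of 10 striatal classes and that of the 7 beta subunits in 9 of 10, and the old libraries were all below the young in 9 classes for each. In the ATPases this was so in 5 and in the non-ATPases in 4 of the 10 striatal classes. In the hippocampus it was so in 4 of 9 classes for the alpha subunits, 2 of 9 for the beta subunits, 6 of 9 for the ATPases and 5 of 9 for the non-ATPases, and in 1 class both old beta sums were above both young ones. The 3 chaperones of the base did not follow: their sum was lower in 2 of 10 striatal classes. Ribosomal protein genes moved with these sums in some classes and not in others. Their share of UMIs in D1-like nuclei was 0.209% and 0.202% at 3 months and 0.199% and 0.196% at 21 months. In striatal oligodendrocyte-like nuclei it was 0.340% and 0.328%, and then 0.311% and 0.291%. In hippocampal oligodendrocyte-like nuclei it was 0.286% and 0.445%, and then 0.265% and 0.290%. Depth moved with the striatal sums as well. Median UMIs of a nucleus were lower in both old libraries than in both young ones in 9 of 10 striatal classes, for example 14470 and 15740.5 at 3 months and 13008.5 and 9782 at 21 months in D1-like nuclei, and 3248 and 3695, and then 2985 and 2510, in oligodendrocyte-like nuclei. In the hippocampus, where the sums were lower in 8 of 9 classes, these medians were lower in 0 of 9 classes and higher in both old libraries in 7. The part of the ribosomal share and of depth in the lower sums was not tested.

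**Figure D5:**
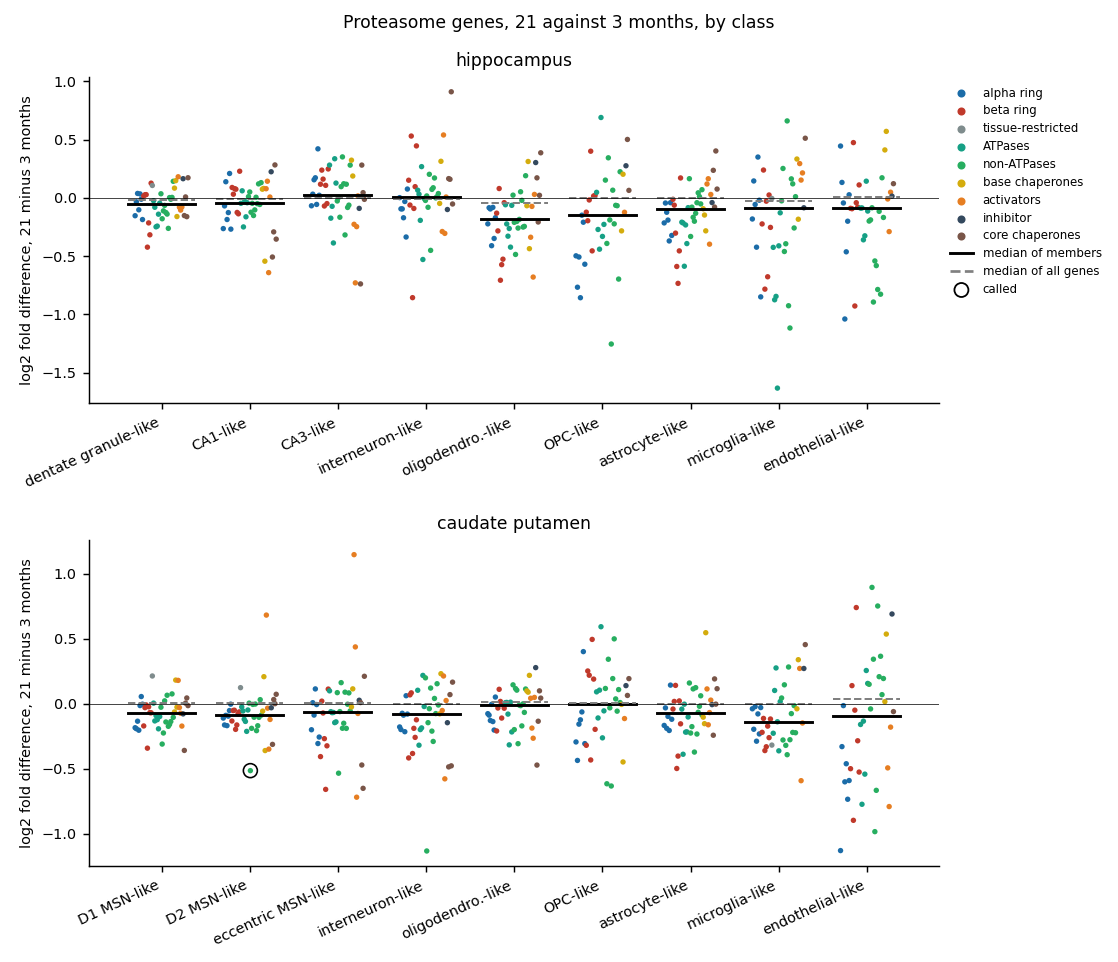
Log2 difference of 21 minus 3 months for each tested member in each class of both regions, with short lines for the member median and the all-gene median. The member lines lie at or below the all-gene lines in all striatal classes, and the ringed point is Psmd2 in D2-like nuclei.

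Hippocampal age differences depended on a single young library. Without the first 3-month hippocampal library, so that the second stood alone for the young group, 12 hippocampal pairs were called, all lower with age (4.54% of all pairs called, 2.90% lower). These were Psmb4 (-0.59), Psmb5 (-0.39), Psmb6 (-0.50), Psma7 (-0.29) and Psmc3 (-0.36) in dentate granule-like nuclei, Psma4 (-0.70), Psmb4 (-0.98), Psmb6 (-0.79) and Psmc3 (-0.60) in oligodendrocyte-like nuclei, Psmb5 (-1.13) and Psmc3 (-0.76) in astrocyte-like nuclei and Psma7 (-1.28) in microglia-like nuclei. The mean age difference over both regions then gave 6 calls (6.52% of all pairs). The second 3-month library had Psmb5 at 23.2 CPM in astrocyte-like nuclei against 11.3 in the first, and at 38.4 against 10.1 in microglia-like nuclei. The same library had the largest ribosomal share in these classes, 0.357% against 0.232% to 0.246% in astrocyte-like and 0.535% against 0.367% to 0.393% in microglia-like nuclei.

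The immune subunits were not called with age. Of their pairs, 0 of 8 in the hippocampus and 0 of 9 in the caudate putamen passed by edgeR, and 0 of 6 for the mean over regions (1 at an unadjusted p under 0.05), with 0 by DESeq2 in each. Psmb9 in microglia-like nuclei had a mean age difference of log2 0.72 (SE 0.33, unadjusted p = 0.0437 by edgeR, adjusted p = 0.363), from 0.83 in the hippocampus and 0.60 in the caudate putamen. Psmb8 in endothelial-like nuclei was at 0.91 (SE 0.60, adjusted p = 1) in the hippocampus and 0.10 in the caudate putamen.

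In astrocyte-like nuclei Psmb8 and Psmb9 were below the filter on low counts. Psmb8 was at 0.496 and 0.577 CPM at 3 months and 1.27 and 1.64 at 21 months in the hippocampus, and at 0.218 and 0.279, and then 1.42 and 1.13, in the caudate putamen, on 45 UMIs in all. Psmb9 was at 0.744 and 0.462, and then 1.27 and 1.64, and in the caudate putamen at 0 and 0, and then 0.630 and 0.902 CPM, on 38 UMIs. Old libraries were above young ones for both genes in both regions. Of all genes that passed the filter in these nuclei, 20% in the hippocampus and 20.9% in the caudate putamen were so. Without the filter, with 3.79% of all pairs called, the mean age difference was called by edgeR for Psmb8 (log2 1.86, adjusted p = 0.0434) and Psmb9 (3.25, adjusted p = 0.0282), and DESeq2 gave no adjusted p for either. The fitted value of Psmb9 depends on the libraries at 0. The astrocyte-like nuclei held 90.4 to 116 CPM of the 13 microglia markers in the hippocampus and 77.6 to 92.1 in the caudate putamen, and their part in these levels was not tested.

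Between the regions, 1 of 200 pairs was called in the glial and endothelial classes, where 10.9% of all pairs were (14 at an unadjusted p under 0.05, 10 higher and 4 lower in the caudate putamen, DESeq2 0, with 6.36% of all pairs). This was Psme1 in oligodendrocyte-like nuclei, lower in the caudate putamen by log2 -0.89 (SE 0.24, adjusted p = 0.0296). It was at 7.28 and 5.64 CPM at 3 months and 5.02 and 4.67 at 21 months in the hippocampus, and at 3.91 and 2.30, and then 3.17 and 2.91 CPM, in the caudate putamen, with no overlap. DESeq2 gave an adjusted p of 0.125. The call was kept without the second 3-month hippocampal library (0.0219) and without the first 3-month striatal one (0.0222). It was lost without the first 3-month (0.0861), first 21-month (0.135) or second 21-month (0.0868) hippocampal library and without the second 3-month (0.125), first 21-month (0.0520) or second 21-month (0.0703) striatal library. Without the second 3-month hippocampal library 6 pairs of 5 members were called (12.1% of all pairs): Psma3 in astrocyte-like, Psmb4, Psmb6, Psmd3 and Psme1 in oligodendrocyte-like and Psmb6 in OPC-like nuclei. The immune subunits gave 0 of 6 calls between the regions (2 at an unadjusted p under 0.05, DESeq2 0).

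A list of 36 other genes of the ubiquitin and proteasome pathway was read in the same fits. With age 0 of 298 pairs were called in the hippocampus (21 at an unadjusted p under 0.05, 7 higher and 14 lower; DESeq2 called 1), and 3 of 298 in the caudate putamen, all lower (45 at an unadjusted p under 0.05, 13 higher and 32 lower; DESeq2 called 1). The called shares of all pairs were 1.09% and 1.25%, and at an unadjusted p under 0.05 the list had 7.05% and 15.1%, beside 12.01% and 13.8% of all pairs. Both enzymes that activate ubiquitin were among the 3. Uba1 in D2-like nuclei was at 21.1 and 19.96 CPM at 3 months and at 15.8 and 16.04 at 21 months (log2 -0.39, SE 0.08, adjusted p = 0.0346, and 0.101 to 0.164 without any 1 striatal library). Uba6 in the same nuclei was at 56.5 and 60.2, and then at 47.5 and 42.2 CPM (-0.40, SE 0.08, adjusted p = 0.0380, and 0.0591 to 0.210). For each, both old libraries were below both young ones, as for 25% of all genes in these nuclei.

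The other was Sem1, a small subunit of the lid of the regulatory particle that has no Psm symbol, in striatal oligodendrocyte-like nuclei. It was at 50.05 and 51.7 CPM at 3 months and at 34.7 and 31.2 at 21 months (log2 -0.57, SE 0.11, adjusted p = 0.0390). In the hippocampus the same class had 36.1 and 37.9, and then 37.2 and 34.0 CPM, and the ages overlapped. The Sem1 call was kept without the first (0.0162) or the second (0.0193) 3-month hippocampal library and lost without any other (0.0576 to 0.351). For the mean over regions, 2 of 163 pairs were called (2.89% of all pairs): Sqstm1, a receptor for ubiquitinated cargo, higher in astrocyte-like nuclei (0.35, adjusted p = 0.0408), and Ubb, a ubiquitin gene, lower in OPC-like nuclei (-0.75, adjusted p = 0.0330).

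Between neuronal and glial classes, 28 of 35 genes of that list were called in the hippocampus, 13 higher and 15 lower, and 30 of 34 in the caudate putamen, 11 higher and 19 lower, where 72.3% and 76.1% of all genes were called. Nfe2l2, which encodes a factor that binds the antioxidant response element, was lower in neurons by log2 -3.88 (SE 0.14) and -3.40 (SE 0.14). Its CPM was 138 to 205 in hippocampal microglia-like and 3.46 to 5.21 in dentate granule-like nuclei. Pomp, the chaperone of core assembly, was lower by -0.42 (SE 0.11, adjusted p = 0.000514) and -0.61 (SE 0.11, adjusted p = 4.74e-06). Ube3a, the ubiquitin ligase lost in Angelman syndrome, was higher by 2.50 and 2.11. Usp14, a deubiquitinase of the regulatory particle, was higher by 0.45 (SE 0.05) and 0.41 (SE 0.04) relative to the median gene.

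A list of 10 genes of interferon signalling and MHC class I stood beside the immune subunits. All 10 were lower in neurons in both regions, where 34.6% and 37.6% of all genes were, and 9 of 10 were higher in microglia-like nuclei in both, where 22.9% and 27.9% were. Tap1, the peptide transporter that shares a promoter region with Psmb9, was higher in microglia-like nuclei by log2 2.98 (SE 0.40) and 3.49 (SE 0.39). With age, 0 of 57 pairs in the hippocampus and 0 of 55 in the caudate putamen were called (10 and 8 at an unadjusted p under 0.05, all higher, DESeq2 0 in both). The unadjusted shares were 17.5% and 14.5%, beside 12.01% and 13.8% of all pairs. For the mean over regions, 2 of 37 were called, both Nlrc5, the activator of MHC class I transcription (11 at an unadjusted p under 0.05, all higher, DESeq2 0), where 2.89% of all pairs were called. In astrocyte-like nuclei Nlrc5 was at 4.34 and 3.35 CPM at 3 months and at 9.78 and 5.63 at 21 months in the hippocampus, and at 2.18 and 2.51, and then 4.73 and 5.41, in the caudate putamen (log2 1.11, adjusted p = 0.0350). This call was lost without the second 3-month or the first 21-month hippocampal library and without any striatal one (adjusted p 0.0681 to 0.206). In oligodendrocyte-like nuclei the difference was 1.87 (adjusted p = 0.0473), which was kept without the first 21-month hippocampal library (0.0269) and lost without any other (0.0551 to 0.236).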

How the data were processed

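The values were UMI counts per gene and nucleus (single-nucleus RNA, 10x Genomics droplets), deposited as matrices by the authors and not normalized. The file headers name Cell Ranger 6.1.2 for 7 libraries and 7.0.0 for the second 3-month striatal one, and the submitters' processing notes name 4.0.0 and mm10. Nuclei were kept from 500 detected genes upwards if mitochondrial genes took no more than 5% of UMIs, and 10682 doublets were removed with Scrublet. Where the automatic cutoff was far from the expected doublet rate, that rate set the cutoff, which was so for the second 3-month hippocampal library. Nuclei were clustered with scanpy 1.11.5 on 3000 variable genes, with the members left out, 40 components and Leiden resolution 1. UMI counts were summed by class and library and tested with edgeR 4.0.16 (TMM, filterByExpr, quasi-likelihood, Benjamini-Hochberg over all genes of a fit). The SE of an edgeR value is the size of the log2 difference over the square root of its F statistic. The 95% intervals are 1.96 SE to each side, a normal approximation, and are narrower than the test itself implies. Glial and endothelial classes were fitted on 8 libraries and neuronal classes on the 4 of their region; mural-like nuclei entered no age fit. Libraries had 67205436 to 234811422 UMIs before filtering, and leaving out 1 library leaves a group with 1 sample, assumed to vary like the others. DESeq2 1.42.0 was an alternative, beside those of the closing section.

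The scripts were tested on simulated data. Members and gene lists were chosen with earlier results of these data known. The genes named were the catalytic and immune subunits in every comparison and the called members with the 5 largest and 5 smallest differences. Examples of roles were also named (Psmb6, Psma7, Psmc5, Psmd4, the activators Psme3 and Psme4, Psmf1, Psmg4), with no base chaperone or tissue-restricted subunit among them. Genes named beyond that rule (Psmd2 in the classes where it was not called, and the genes of single alternatives and of the other lists) were chosen after their values were seen, and so were the hippocampal counts of signs, non-overlap and sums without 1 young library. Promoter windows come from RefSeq (GRCm38.p6) and gene positions from GENCODE vM21, which matched 32158 of 32285 genes.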

Additional observations from a re-analysis of the deposited data

How the results depend on the processing

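Leaving out 1 library at a time gave 0 to 12 hippocampal and 0 to 1 striatal age calls, 0 to 6 for the mean age difference, 0 to 0 for the difference of age effects, 0 to 6 between regions, 22 to 29 (hippocampus) and 23 to 30 (caudate putamen) for neurons against glia, and 8 to 13 and 11 to 16 for microglia. Hippocampal microglia calls were 7 with DESeq2 size factors, 6 with DESeq2, 10 without a filter and 8 after removal of the length trend. Without a filter there were 4 hippocampal, 3 striatal and 3 mean age calls, beside 2.59%, 2.34% and 3.79% of all pairs, and 3 calls between regions. DESeq2 gave 0 calls between regions, where it called 6.36% of all pairs. Library totals alone, an alternative chosen after seeing the data, gave 0 striatal age calls, 2 between regions and 27 for striatal microglia (62.2% of all genes called). Shares of all genes called are given for some of these settings only. The other changes in count can therefore not be read as particular to the members.

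For neurons against glia, DESeq2 size factors moved the all-gene median to -0.073 and -0.087. They gave 12 higher and 16 lower calls in the hippocampus and 10 and 20 in the caudate putamen, where 48.1% and 47.1% of the calls of all genes were higher. Removing the length trend gave 15 higher and 8 lower in the caudate putamen, where 53.1% of the calls of all genes were higher. For microglia, size factors gave 4 higher and 3 lower, and 7 and 9, where 52.9% and 52.5% of the calls of all genes were higher.

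Values that changed sign after the length trend was removed were Psma7 in striatal neurons against glia (0.0037) and Psme4 in microglia (0.21, which passed the test in the hippocampus, and 0.13). On library totals they were, for neurons against glia, Psmd4 (-0.18) and Psmf1 (-0.14) in the hippocampus and Psma3 (-0.052), Psmb2 (-0.034), Psmd4 (-0.28), Psme3 (-0.33), Psme4 (-0.18) and Psmf1 (-0.26) in the caudate putamen. For microglia they were Psmc1 (0.069), Psmd9 (0.081), Psmd4 (0.31) and Psme4 (0.29) in the hippocampus and Psmb7 (0.44), Psmd7 (0.014), Psmd9 (0.029), Psmd14 (0.053) and Psme4 (0.28) in the caudate putamen. The shift of the scale itself accounts for the sign changes on library totals, and for the others the cause was not tested. Of 1127 values of named genes under the alternatives, 948 kept direction and side of the threshold, 83 lost and 33 gained it, 43 moved without a test and 20 changed sign.

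A replicate block gave 4 striatal age calls (5.31% of all striatal pairs were called) and 2 between regions, for which no share of all pairs is given. The striatal calls were Psmd2, lower with age in D1-like, D2-like and interneuron-like nuclei, and Psme1, higher with age in D2-like nuclei (log2 0.68). Psme1 was also called higher in D2-like nuclei without the filter on low counts (0.68). The labels do not tie the numbers to animals, and with 2 pairs the same-numbered libraries share only a number. In each class, the difference between the young libraries, taken in number order, was correlated across genes with that between the old libraries. These correlations of differences ran from -0.143 to 0.227 in the hippocampus and from 0.022 to 0.42 in the caudate putamen. Both the same-numbered and the crossed block gave 0 hippocampal calls, which does not tell the pairings apart. Precision is limited by 2 libraries in each group and, in endothelial-like nuclei, by 38 to 201 nuclei in a library, and the smallest detectable difference was not computed.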
